A study of Mus musculus with 18 samples.

Results

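The genes described here are 46 genes that act in mitosis. They encode the kinases and cyclins that drive entry into mitosis, the spindle checkpoint, the kinetochore, the chromosomal passenger complex, mitotic kinesins, and proteins of the spindle, of cytokinesis and of chromosome structure. They were chosen by gene symbol from a written list, and 46 of 46 were found among the 14521 named genes of the expression table. No expression value entered the choice, although results of the same series were known when the list was drawn up.

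The mRNA was sequenced from skin samples of 6 female littermates of the outbred hairless strain SKH-1E, in which chronic ultraviolet exposure gives rise to skin tumours. Every mouse (mice 2, 3, 7, 8, 9 and 10) received chronic simulated solar ultraviolet light and gave 3 samples, 1 to each group of 6 libraries. CHR was exposed skin without a lesion, PAP a papilloma, which is a benign tumour of surface epithelium, and SCC an invasive squamous cell carcinoma. All 3 groups had thus received ultraviolet light, and no unirradiated skin was compared here. The lesions were checked by histology. The study estimated that most of the tissue of papillomas and carcinomas was tumour cells, without giving values for single samples. How much tissue beneath the epidermis each sample took in is not given in the sources used here.

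Mitosis is switched on when cyclin B bound to Cdk1 is activated, with Aurora and Polo-like kinases acting alongside it. Chromosomes then attach to spindle microtubules through the kinetochore, and the spindle checkpoint holds back the anaphase-promoting complex until every chromosome is attached. Many of these genes are transcribed mainly in the late part of the cell cycle, from promoters bound by FOXM1 and the DREAM and MYB-MuvB complexes. In normal epidermis dividing cells lie in or near the basal layer.

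The reads recovered for the named genes of the table came to 15.39 to 20.98 M per library, which is not the full sequencing depth. Levels below are normalised read counts, which are recovered reads divided by the size factor of the library, and they are not corrected for gene length. The tissue make-up of the libraries differed between groups. The summed level of 18 of 18 skeletal muscle markers was 413069.6 to 621429.6 in CHR, 359 to 31125 in PAP and 547 to 205566 in SCC. That of 20 of 20 keratinocyte markers was 347652 to 521353 in CHR, 828934 to 1322234 in PAP and 343287 to 898077 in SCC. No marker of any list was at 0 in a whole group, and how far these shifts take part in the results below was not tested beyond the keratinocyte scaling. The myeloid markers (9 of 10 in the table) summed to 34424 to 56607 in CHR, 1742 to 8623 in PAP and 4262 to 50624 in SCC. The dermal fibroblast markers (10 of 10) summed to 140814 to 310636, 5595 to 165019 and 18816 to 499704. Gene by gene, 7 of these 10 were called lower in PAP and 2 in SCC, and 0 higher (limma, adjusted p under 0.05). The T cell markers (7 of 8) summed to 1085 to 1679, 229.7 to 540.1 and 308 to 1057. The adipocyte markers (10 of 10) summed to 9282 to 23235, 2286 to 13531 and 2285 to 23182. The endothelial markers (5 of 5) summed to 3455 to 5053, 2335 to 4113 and 3918 to 6093. They went both ways, with 1 called higher and 2 lower in PAP, and 2 higher and 1 lower in SCC. The single B cell marker found of 4, Cd79b, was at 7.68 to 83.1, 2.10 to 18.8 and 5.37 to 44.6.

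The first comparison asked how the mitotic programme of papillomas and carcinomas differed from that of irradiated skin beside them. Per library size, 46 of 46 genes rose in papillomas and 46 of 46 rose in carcinomas (limma, adjusted p under 0.05), while relative to 20 keratinocyte markers 0 rose and 2 (Bub3 and Espl1) fell in papillomas and 7 rose in carcinomas. At an unadjusted p under 0.05, 2 of the 46 differed in either direction in papillomas on that second scale, beside 13619 of all 14521 genes. On it 62 of all genes were called higher and 93.3% lower in papillomas, and 0.888% higher and 75.2% lower in carcinomas. The median over all genes on it was -1.36 in PAP and -0.83 in SCC. On the library-size scale 22.8% of all 14521 genes were called higher and 28.7% lower in papillomas, and 15.1% higher and 21.4% lower in carcinomas. These shares of all genes belong beside every count by role given below. The median log2 fold change of the mitosis genes was 1.42 in PAP (range 0.67 to 1.80) and 1.16 in SCC (range 0.46 to 1.56), against medians of 0.0014 and -0.02 over all genes. Log2 fold changes are on the scale of log2(deposited value + 1), which understates the change of weakly expressed genes, and are given ± SE with n = 6 libraries a group. Both comparisons share the 6 CHR libraries. In bulk tissue a larger share of dividing cells and more RNA per dividing cell cannot be told apart.

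The 3 largest changes in papillomas on this scale were those of Bub1, Top2a and Kif20a, and the 3 smallest those of Bub3, Espl1 and Cenpk. On recovered reads (limma-voom), which do not compress low genes, the largest were Bub1 (2.08), Aurka (1.99) and Plk1 (1.91) and the smallest Bub3 (0.71), Espl1 (0.93) and Smc4 (1.02). On the log2(deposited value + 1) scale, Bub1 stood at the point where 0.73% of all genes had a larger log2 fold change, and Bub3 where 9.41% did. In carcinomas the largest were Bub1, Cdk1 and Ndc80 and the smallest Espl1, Bub3 and Cenpk, and 12.9% of all genes had a larger change than Espl1. Without the carcinoma of mouse 9 the change of Ndc80 was 0.96 beside a median of 1.04 for the 46. On recovered reads the largest were Ndc80 (1.85), Bub1 (1.82) and Aurka (1.69) and the smallest Espl1 (0.54), Bub3 (0.58) and Smc4 (0.79). Per library size, the levels in the 6 papillomas lay entirely above those in the 6 CHR samples for 46 of 46 genes, as they did for 14.5% of all genes. The 6 carcinomas lay entirely above CHR for 43 of 46, the exceptions being Cenpf, Kif14 and Espl1, against 8.57% of all genes.

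**Figure D1:**
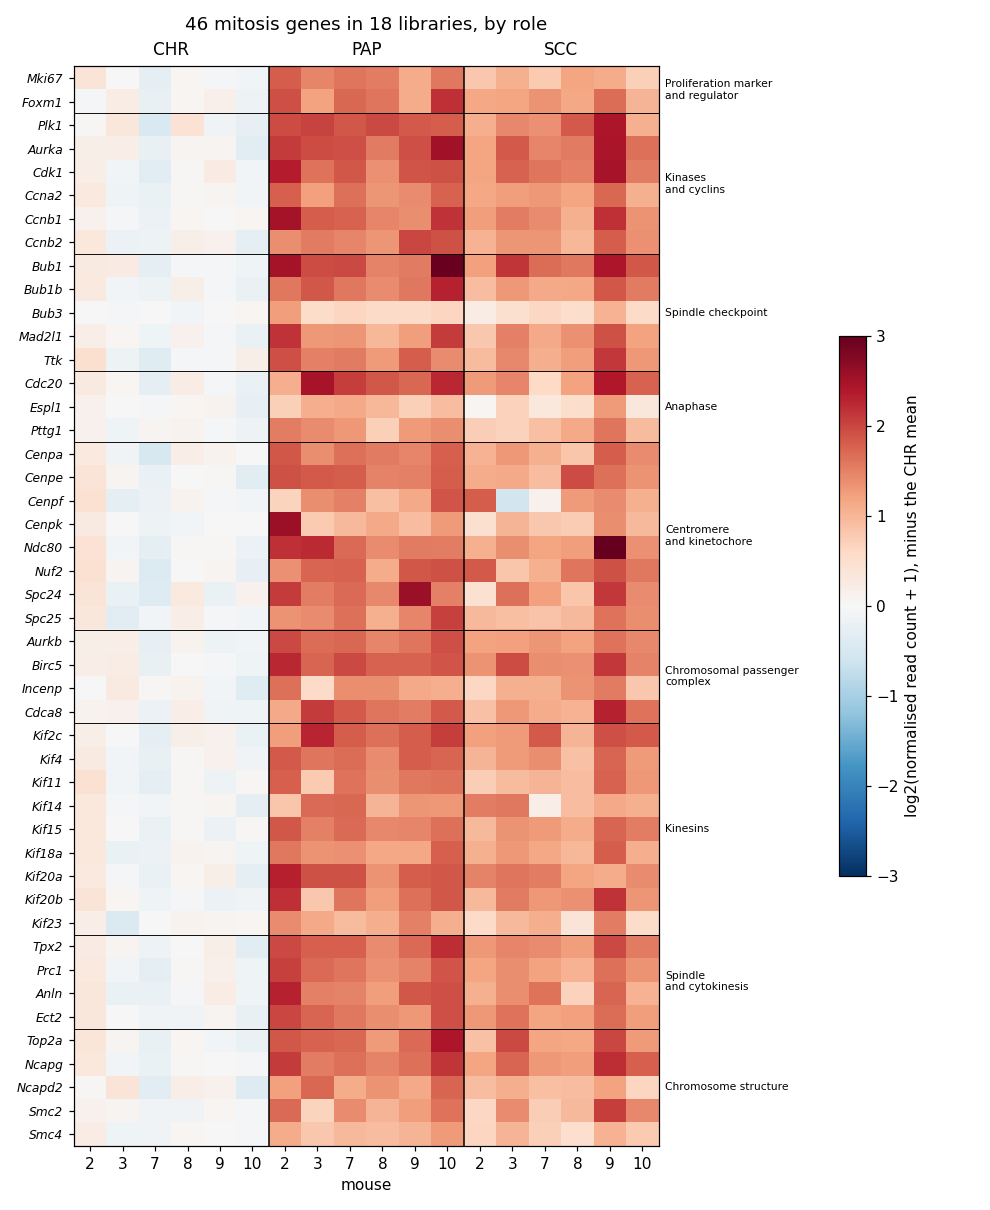
Level of each of the 46 genes (rows, grouped by role) in each of the 18 libraries (columns, by group and mouse number), as log2(normalised read count + 1) minus the mean of the 6 CHR libraries. The colour scale ends at 3 in both directions, which Ndc80 in the carcinoma of mouse 9 exceeds. The PAP columns are above the CHR mean for all 46 genes on this library-size scale. Relative to 20 keratinocyte markers 0 of the 46 are called higher in PAP, beside 62 of all 14521 genes, and 17 have a negative log2 fold change. The median over all genes on that second scale is -1.36, and 93.3% of them are called lower.

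Mki67, which encodes the Ki-67 antigen that coats mitotic chromosomes and serves as the standard marker of cycling cells, had levels of 3929 to 6191 in CHR (median 4644), 10329.6 to 16639.8 in PAP (median 13958) and 7760.1 to 10744 in SCC (median 9187). All 12 lesions lay above all CHR samples, the papilloma and carcinoma ranges overlapped, and it rose by 1.5 ± 0.13 in PAP and 0.93 ± 0.13 in SCC on the library-size scale (limma, adjusted p 1.42e-07 and 3.45e-05) but was not called relative to keratinocyte markers (0.14 and 0.12, adjusted p 0.516 and 0.601). Foxm1, the forkhead transcription factor that activates late cell cycle genes, had levels of 198 to 268 in CHR (median 228), 499 to 1052 in PAP (median 727) and 462 to 734 in SCC (median 519). It rose by 1.38 ± 0.15 in PAP and 1.04 ± 0.15 in SCC (adjusted p 1.05e-06 and 5.24e-05). Per kilobase of exon, Mki67 had the highest mean level of the 46 genes in CHR (478) and in PAP (1369), followed by Smc4 in CHR (420.3) and by Top2a in PAP (1253), and in SCC Top2a (979) stood above Mki67 (918). Cenpk had the lowest level per kilobase in every group (12.0 in CHR, 32.4 in PAP and 23.0 in SCC). The length counts all annotated exons of a gene, so these rankings depend on which transcripts are annotated.

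The 6 kinases and cyclins that drive mitotic entry all rose in both lesions per library size (adjusted p 1.69e-07 to 2.93e-06 in PAP and 4.47e-06 to 0.000117 in SCC), and relative to keratinocyte markers only Ccnb1 had a negative log2 fold change, in papillomas. Plk1, the Polo-like kinase of centrosome maturation and mitotic entry, had levels of 99.9 to 187 in CHR (median 135), 488 to 562 in PAP (median 516) and 290.1 to 743 in SCC (median 366). Aurka, the Aurora kinase of the spindle poles, had levels of 156 to 223 in CHR (median 207), 574 to 1129 in PAP (median 756) and 442 to 1078 in SCC (median 597). The 6 papillomas were close together for Plk1 and spread for Aurka, and in both genes 1 carcinoma, that of mouse 9, stood highest among the carcinomas. Plk1 rose by 1.5 ± 0.17 in PAP and 1.19 ± 0.17 in SCC. Aurka rose by 1.68 ± 0.17 in PAP and 1.40 ± 0.17 in SCC.

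Cdk1, the kinase at the centre of mitotic entry, had levels of 405 to 593 in CHR (median 495), 1297 to 2575 in PAP (median 1835) and 1143 to 2808 in SCC (median 1501). Among its cyclins, Ccna2 had levels of 641 to 909.9 in CHR (median 729), 1737 to 2562 in PAP (median 2169.9) and 1557 to 2448 in SCC (median 1728). No lesion fell into the CHR range of either gene. Ccnb1, the main mitotic cyclin, had levels of 58.1 to 72.3 in CHR (median 67.5), 176 to 379 in PAP (median 232) and 140.0 to 307 in SCC (median 175). Ccnb2, another B-type cyclin, had levels of 235 to 364 in CHR (median 289.9), 725 to 1167 in PAP (median 834) and 576 to 1029.7 in SCC (median 732), and it was lower in the carcinoma than in the papilloma of all 6 mice. The log2 fold change of Cdk1 was 1.69 ± 0.18 in PAP and 1.55 ± 0.18 in SCC. Ccna2 changed by 1.44 ± 0.13 in PAP and 1.2 ± 0.13 in SCC. The B-type cyclins followed, Ccnb1 with 1.25 ± 0.15 in PAP and 0.95 ± 0.15 in SCC. Ccnb2 changed by 1.40 ± 0.14 in PAP and 1.13 ± 0.14 in SCC.

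Of the spindle checkpoint genes, 5 of 5 rose in both lesions per library size (adjusted p 4.47e-07 to 0.000317 in PAP and 2.06e-05 to 0.00317 in SCC), and relative to keratinocyte markers Bub3 fell in papillomas, as did 93.3% of all genes, and Mad2l1 turned negative without a call. Bub1, a checkpoint kinase recruited to unattached kinetochores, had levels of 195 to 290.3 in CHR (median 235), 678 to 1873 in PAP (median 952) and 564 to 1289 in SCC (median 821). It showed the largest change of the 46 genes per library size, 1.80 ± 0.21 in PAP and 1.56 ± 0.21 in SCC, and its mean level in PAP was 4.48 times that in CHR. Bub1b, which encodes the BubR1 subunit of the mitotic checkpoint complex, had levels of 544 to 771 in CHR (median 606), 1671 to 3119.8 in PAP (median 1889) and 1197 to 2288 in SCC (median 1475). Bub1b changed by 1.61 ± 0.16 in PAP and 1.23 ± 0.16 in SCC. In both genes the papilloma of mouse 10 stood highest.

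Ttk, the Mps1 kinase that starts checkpoint signalling, had levels of 224 to 399 in CHR (median 274), 693 to 1107 in PAP (median 835) and 553 to 1249.5 in SCC (median 702). Mad2l1, the Mad2 protein that binds and restrains Cdc20, had levels of 157 to 206 in CHR (median 179), 358 to 807 in PAP (median 448) and 315 to 681 in SCC (median 440.3). Ttk rose by 1.38 ± 0.16 in PAP and 1.18 ± 0.16 in SCC. Mad2l1 rose by 1.24 ± 0.18 in PAP and 1.06 ± 0.18 in SCC. Bub3, the scaffold that brings Bub1 and BubR1 to kinetochores, moved least of the 5, with 860.4 to 952 in CHR (median 923), 1336 to 2185 in PAP (median 1394) and 1063 to 1887 in SCC (median 1336). Its lesions still did not overlap CHR, and it rose by 0.67 ± 0.13 in PAP and 0.54 ± 0.13 in SCC (adjusted p 0.000317 and 0.00317). Relative to keratinocyte markers it instead fell in papillomas by 0.69 (adjusted p 0.014) and was -0.27 in carcinomas (adjusted p 0.329). On that scale 93.3% of all genes were called lower in papillomas and 75.2% in carcinomas. The medians over all genes were -1.36 and -0.83.

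The 3 genes of the metaphase to anaphase switch rose per library size (adjusted p 6.03e-06 to 0.000163 in PAP and 0.000184 to 0.0191 in SCC), and relative to keratinocyte markers Espl1 fell in papillomas and Pttg1 was negative there without a call. On that second scale 93.3% of all genes were called lower in papillomas, with a median of -1.36 over all genes. Cdc20, the activator of the anaphase-promoting complex on which the checkpoint acts, had levels of 207 to 303 in CHR (median 251), 536 to 1394 in PAP (median 986) and 378 to 1338 in SCC (median 655). It rose by 1.66 ± 0.23 in PAP and 1.24 ± 0.23 in SCC, with the lowest papilloma in mouse 2 and the highest carcinoma in mouse 9. Pttg1, which encodes securin, the inhibitor of separase, had levels of 212 to 257 in CHR (median 239), 384 to 684 in PAP (median 601) and 383 to 719 in SCC (median 447). It rose by 1.07 ± 0.14 in PAP and 0.83 ± 0.14 in SCC. Espl1, separase itself, which cuts cohesin at anaphase, had levels of 310.0 to 404 in CHR (median 380.5), 605 to 818 in PAP (median 719.6) and 382 to 899 in SCC (median 498). The lowest carcinoma, that of mouse 2, lay inside the CHR range, and Espl1 was higher in the carcinoma than in CHR in 5 of 6 mice. It rose by 0.81 ± 0.14 in PAP and 0.46 ± 0.14 in SCC (adjusted p 0.000163 and 0.0191). In carcinomas it no longer passed without mouse 3 (adjusted p 0.0664) or mouse 8 (0.053).

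Of the 8 centromere and kinetochore genes, 8 rose in both lesions per library size (adjusted p 3.23e-07 to 0.0108 in PAP and 1.15e-05 to 0.0416 in SCC), and relative to keratinocyte markers 5 of them had a negative log2 fold change in papillomas and 1, Cenpk, in carcinomas. Cenpa, the histone variant that marks centromeres, had levels of 203 to 347 in CHR (median 295), 745 to 1031 in PAP (median 865) and 508 to 995 in SCC (median 644). Cenpe, a kinesin of the outer kinetochore, had levels of 609 to 999 in CHR (median 778), 2139.5 to 2871 in PAP (median 2674) and 1450.2 to 2962 in SCC (median 1803). Both kept the lesions clear of CHR. Cenpa changed by 1.41 ± 0.14 in PAP and 1.06 ± 0.14 in SCC. Cenpe changed by 1.63 ± 0.15 in PAP and 1.27 ± 0.15 in SCC. Spc24 and Spc25 anchor the NDC80 complex to the inner kinetochore. Spc24 had levels of 75.5 to 131 in CHR (median 97.6), 274 to 604 in PAP (median 308) and 138 to 439 in SCC (median 253). It rose by 1.33 ± 0.20 in PAP and 0.92 ± 0.20 in SCC. Spc25 rose by 1.15 ± 0.14 in PAP and 0.84 ± 0.14 in SCC. Nuf2, which pairs with Ndc80 to bind microtubules, rose by 1.32 ± 0.17 in PAP and 1.18 ± 0.17 in SCC.

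Cenpf, a large protein of the outer kinetochore and nuclear envelope, was uneven among carcinomas, with levels of 906 to 1483 in CHR (median 1043), 1732 to 4024 in PAP (median 2626) and 736 to 3827 in SCC (median 2455). The carcinoma of mouse 3 was below every CHR sample and that of mouse 7, at 1195, inside their range. It rose by 1.2 ± 0.30 in PAP and 0.83 ± 0.30 in SCC (adjusted p 0.00333 and 0.0416). The call in carcinomas was lost with the mouse as a block (adjusted p 0.0501), on log2 normalised counts (0.0519), and with the CHR and SCC libraries alone (0.0601). It was also lost without mouse 2 (0.0747), 8 (0.115), 9 (0.149) or 10 (0.0956). Cenpk, a subunit of the centromere-associated network, had levels of 55.8 to 75.2 in CHR (median 62.0), 108 to 374 in PAP (median 130.4) and 87.3 to 166 in SCC (median 117). Its highest papilloma, that of mouse 2, stood far above the other 5. It rose by 0.81 ± 0.18 in PAP and 0.55 ± 0.18 in SCC (adjusted p 0.0009 and 0.0209). The adjusted p was 0.0556 to 0.0826 in carcinomas when mouse 3, 7, 8, 9 or 10 was left out.

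The chromosomal passenger complex, which corrects faulty attachments and steers cytokinesis, rose in 4 of 4 subunits per library size (adjusted p 3.4e-08 to 2.68e-05 in PAP and 1.98e-06 to 0.000206 in SCC), with only Incenp negative in papillomas relative to keratinocyte markers. Aurkb, its kinase, had levels of 194 to 266 in CHR (median 236), 644 to 923 in PAP (median 756) and 534 to 719 in SCC (median 562). It had the smallest adjusted p of the 46 genes in papillomas, with changes of 1.47 ± 0.10 in PAP and 1.11 ± 0.10 in SCC. Birc5, which encodes survivin, had levels of 225 to 310.2 in CHR (median 258), 889.9 to 1267 in PAP (median 947) and 676 to 1149 in SCC (median 720.0). It rose by 1.66 ± 0.13 in PAP and 1.39 ± 0.13 in SCC. Incenp, the scaffold, had levels of 528 to 812 in CHR (median 686), 1011 to 2108 in PAP (median 1632) and 1043 to 1998 in SCC (median 1413). The papilloma of mouse 3 was the lowest of the 6, and Incenp rose by 1.12 ± 0.17 in PAP and 1.0 ± 0.17 in SCC. Cdca8, the borealin subunit, rose by 1.42 ± 0.18 in PAP and 1.16 ± 0.18 in SCC.

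All 9 kinesins rose in both lesions per library size (adjusted p 7.99e-08 to 6.84e-05 in PAP and 3.68e-06 to 0.0013 in SCC), while relative to keratinocyte markers Kif14, Kif18a and Kif23 were negative in papillomas and Kif23 in carcinomas. Kif11, the Eg5 motor that pushes spindle poles apart, had levels of 608 to 1006 in CHR (median 717), 1254 to 2527 in PAP (median 2222) and 1214 to 2512 in SCC (median 1453). Kif20a, a motor of the central spindle needed for cytokinesis, had levels of 437 to 655 in CHR (median 537), 1363 to 2664 in PAP (median 1964) and 1149 to 1621 in SCC (median 1458). Kif20b, a related late mitotic motor, had levels of 404 to 590.3 in CHR (median 435), 800.4 to 2064 in PAP (median 1413) and 893 to 2032 in SCC (median 1162). No lesion entered the CHR range for these 3 motors, and Kif11 rose by 1.38 ± 0.18 in PAP and 1.05 ± 0.18 in SCC. Kif20a rose by 1.73 ± 0.14 in PAP and 1.28 ± 0.14 in SCC. Kif20b rose by 1.43 ± 0.20 in PAP and 1.31 ± 0.20 in SCC. Kif14, a motor of the midbody, rose by 1.10 ± 0.18 in PAP and 0.89 ± 0.18 in SCC. The carcinoma of mouse 7, at 269.5, lay inside the CHR range of 192 to 293. The remaining kinesins (Kif2c, Kif4, Kif15, Kif18a and Kif23) changed by 1.11 (Kif23) to 1.56 (Kif2c) in PAP and 0.78 (Kif23) to 1.29 (Kif2c) in SCC.

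The 4 genes of spindle assembly and cytokinesis rose per library size (adjusted p 9.48e-08 to 1.44e-06 in PAP and 3.09e-06 to 0.000104 in SCC), and they stayed positive relative to keratinocyte markers, with a call for Tpx2 in carcinomas only. Tpx2, which activates Aurora A on the spindle, had levels of 459.7 to 680.2 in CHR (median 593), 1529 to 2664 in PAP (median 1994) and 1375 to 2279 in SCC (median 1566). Prc1, which bundles the microtubules of the central spindle, had levels of 494 to 733 in CHR (median 586), 1535 to 2456 in PAP (median 1876) and 1229.6 to 1881 in SCC (median 1438). Tpx2 rose by 1.69 ± 0.14 in PAP and 1.38 ± 0.14 in SCC. Prc1 rose by 1.57 ± 0.13 in PAP and 1.2 ± 0.13 in SCC. Anln, the scaffold of the contractile ring, had levels of 1046 to 1525 in CHR (median 1131), 2873 to 5952 in PAP (median 3922) and 1935 to 4019 in SCC (median 2839). Ect2, the exchange factor that activates RhoA at the cleavage plane, had levels of 387 to 575 in CHR (median 438), 1122 to 1806 in PAP (median 1441) and 1026 to 1449 in SCC (median 1091). In neither gene did a lesion fall into the CHR range. Anln rose by 1.67 ± 0.19 in PAP and 1.21 ± 0.19 in SCC. Ect2 rose by 1.51 ± 0.13 in PAP and 1.24 ± 0.13 in SCC.

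Of the 5 genes of chromosome structure, 5 rose in both lesions per library size (adjusted p 5.77e-07 to 0.000106 in PAP and 6.55e-06 to 0.000389 in SCC), and relative to keratinocyte markers Ncapd2, Smc2 and Smc4 were negative in papillomas and Smc4 in carcinomas. Top2a, the topoisomerase that untangles sister chromatids, had levels of 2717 to 4046 in CHR (median 3156), 7642 to 17011 in PAP (median 10660.0) and 5844 to 12612 in SCC (median 7436). It rose by 1.77 ± 0.20 in PAP and 1.39 ± 0.20 in SCC, a ratio of mean levels of 3.53 in PAP and 2.76 in SCC. The condensin subunits changed by unequal amounts. Ncapg, of condensin I, had levels of 353 to 500.4 in CHR (median 393), 1128 to 1794 in PAP (median 1266) and 912 to 1880.3 in SCC (median 1177). Ncapd2, of the same complex, had levels of 517 to 885 in CHR (median 719), 1475 to 2288 in PAP (median 1667) and 1063 to 1581 in SCC (median 1301). Smc2, the core subunit of both condensins, had levels of 947 to 1109 in CHR (median 1023), 1615 to 3329 in PAP (median 2584) and 1565 to 4307 in SCC (median 2371). Its partner Smc4 had levels of 1992 to 2545 in CHR (median 2150.3), 3819 to 5301 in PAP (median 4331) and 3111 to 4517 in SCC (median 3685). No lesion fell into the CHR range of these 4 subunits. Ncapg rose by 1.59 ± 0.16 in PAP and 1.43 ± 0.16 in SCC. Ncapd2 rose by 1.29 ± 0.14 in PAP and 0.88 ± 0.14 in SCC. Smc2 rose by 1.22 ± 0.21 in PAP and 1.16 ± 0.21 in SCC. Smc4 rose by 0.99 ± 0.11 in PAP and 0.77 ± 0.11 in SCC.

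**Figure D2:**
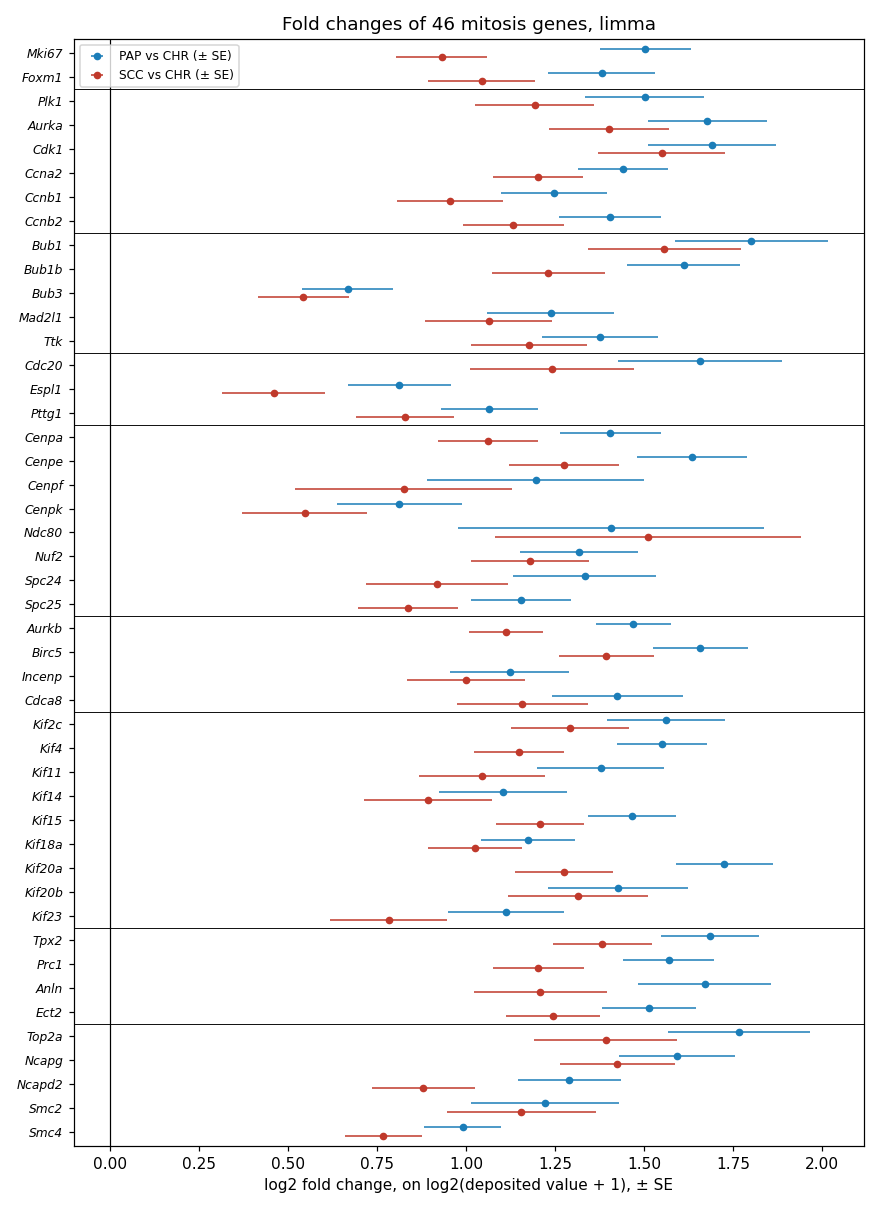
Log2 fold change ± SE of each of the 46 genes, in PAP against CHR (blue) and SCC against CHR (red), from limma on log2(deposited value + 1). On this library-size scale all points lie right of 0 and the SCC point lies left of the PAP point except for Ndc80. Relative to 20 keratinocyte markers 17 of the 46 are negative in PAP and 5 in SCC. On that second scale 93.3% of all genes are called lower in PAP and 75.2% in SCC, with medians of -1.36 and -0.83.

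The next comparison asked whether the mitosis genes differed between carcinoma and papilloma. On the library-size scale the log2 fold change was negative for 45 of 46 genes, with a median of -0.27 against -0.02 over all genes, while relative to keratinocyte markers it was positive for 45 of 46, with a median of 0.27 against 0.53. Of the 46, 1 (Mki67) was called lower in carcinomas (limma) and 0 higher, beside 0.592% of all genes called lower and 4.99% higher, and 15 of 46 had an unadjusted p under 0.05, beside 22.6% of all genes. Mki67 was lower in the carcinoma than in the papilloma of 6 of 6 mice and differed by -0.57 ± 0.13 (adjusted p 0.0245) per library size, but by -0.022 ± 0.21 relative to keratinocyte markers (adjusted p 0.924). The next in size were Anln (-0.46 ± 0.19, adjusted p 0.146) and Kif20a (-0.45 ± 0.14, 0.0595). At the other end were Ndc80 (0.10 ± 0.43, 0.913), Smc2 (-0.07 ± 0.21, 0.889) and Kif20b (-0.11 ± 0.20, 0.791). Papilloma and carcinoma ranges overlapped for 46 of 46 genes, and 0.165% of all genes had every carcinoma below every papilloma.

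With the mouse as a block 3 genes were called lower, Mki67 (adjusted p 0.0182), Kif20a (0.0379) and Kif4 (0.0494), beside 1.1% of all genes. Ccnb2, Kif4, Kif20a and Mki67 were lower in the carcinoma of every mouse, as were 2.99% of all genes. Without mouse 3, 7 or 8 no gene of the whole table was called, so the 0 among the 46 there says nothing about them (8 to 14 had an unadjusted p under 0.05, beside 2056 to 2691 of all genes). Without mouse 2, 0 of 46 were called, beside 52 of all genes called lower and 227 higher, and 39 of 46 rather than 45 were negative. Without mouse 9, 3 were called lower (Aurkb, Espl1 and Mki67) beside 45 of all genes called lower, and without mouse 10, 1 (Mki67) beside 428. Leaving out only the carcinoma of mouse 9 gave 4 (Aurkb, Espl1, Kif4 and Mki67), beside 80 of all genes called lower. Leaving out only that of mouse 10 also gave 4 (Aurkb, Kif20a, Kif4 and Mki67), but beside 473 of all genes. The adjusted p of Mki67 was 0.0526, 0.116, 0.181 and 0.189 without mouse 2, 3, 7 and 8, 0.102 with limma-voom on recovered reads, and 0.123 with only the PAP and SCC libraries. These last 2 fits called 0 of all 14521 genes.

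The study also used a mixed model with the mouse as random effect to sort genes into early genes, which differ from CHR already in papillomas, late genes and stepwise genes. A model of that form was refitted here to the deposited values, which may differ from the values the study put into its own. In the refit 46 of 46 mitosis genes were early and higher, beside 18.4% of all genes, and 0 were late or stepwise. The direction is per library size, and this model was not fitted relative to keratinocyte markers. Cenpf left the early class when the p-values were adjusted and when mouse 2, 8, 9 or 10 was left out.

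Within mice the pattern was even for papillomas and uneven for carcinomas. The median difference of the 46 genes between papilloma and CHR of one mouse was 1.32 (mouse 8) to 2.0 (mouse 10) on log2(normalised read count + 1), with 46 of 46 genes higher in every mouse, as were 22.6% of all genes. Between carcinoma and CHR it was 0.74 (mouse 2) to 1.75 (mouse 9), with 45 of 46 genes higher in mice 2 and 3 and 46 in the other mice, so that 44 were higher in every mouse, beside 16.5% of all genes. These are differences per library size, the scale on which the calls were made that keratinocyte scaling took away, and were not taken relative to keratinocyte markers within mice.

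Between carcinoma and papilloma, mouse 9 went the other way. Its carcinoma was higher than its papilloma for 39 of 46 genes (median 0.30), whereas in the other 5 mice the carcinoma was lower for 32 (mouse 3, median -0.14) to 46 genes (mouse 10, median -0.50), and the median was lowest in mouse 2 (-0.84). Among the 6 carcinomas that of mouse 9 was highest for 41 of 46 genes, and that of mouse 2 lowest for 21. Among papillomas mouse 2 was highest for 23 genes and mouse 10 for 13, and mouse 8 was lowest for 23. Among CHR samples mouse 2 was highest for 35 and mouse 7 lowest for 26.

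The papilloma of mouse 2 combined extremes in both directions. It was highest of the papillomas for Cenpk (374), Bub3 (2185) and Mad2l1 (807), and lowest for Cdc20 (536), Kif2c (569.5), Cdca8 (514), Cenpf (1732) and Kif14 (421). It was also the papilloma with the highest skeletal muscle sum (31125, against 359 to 1452 in the other 5) and the lowest keratinocyte sum (828934), and the part of these in the mitosis genes was not tested. The carcinoma of mouse 9 had a keratinocyte sum of 503264, the lowest of the carcinomas but for mouse 7 (343287). Per library size, 46 of 46 genes were still called higher in papillomas without the papilloma of mouse 2, beside 3219 of all 14521 genes. Without the carcinoma of mouse 9, 44 were called higher in carcinomas, beside 1821 of all genes.

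Because keratinocyte markers moved with the groups, the fold changes were also taken relative to them. Of the 20 markers, 17 rose in papillomas and 11 in carcinomas, with medians of 1.48 and 0.77. Subtracting their mean from every library shifted the median log2 fold change of all genes to -1.36 in PAP and -0.83 in SCC. The median of the mitosis genes became 0.05 and 0.34, so that they lay 1.41 and 1.18 above the median gene, as they did by construction before the subtraction (1.41 and 1.18). On this scale 2 of 46 were called lower in papillomas, beside 93.3% of all genes, and 7 of 46 higher in carcinomas (Aurka, Birc5, Bub1, Cdk1, Ncapg, Top2a and Tpx2), beside 0.888%.

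The outcome depended on which keratinocyte markers were used. The 11 markers of the basal layer and its adhesion to the basement membrane changed by 1.41 (Trp63) to 2.39 (Lama3) in papillomas apart from Dst (0.17, adjusted p 0.525). The 9 others, mostly of desmosomes and other junctions, lay between 0.12 (Cdh1, adjusted p 0.579) and 2.19 (Dsg3). Relative to the basal-layer markers 9 mitosis genes were called lower in papillomas and 3 in carcinomas, beside 96.7% and 91.0% of all genes, with medians of -0.34 and -0.06. Relative to the 9 other markers 21 were called higher in papillomas and 30 in carcinomas, beside 1.33% and 2.12%, with medians of 0.54 and 0.84. This division of the markers was made after their values had been seen.

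**Figure D3:**
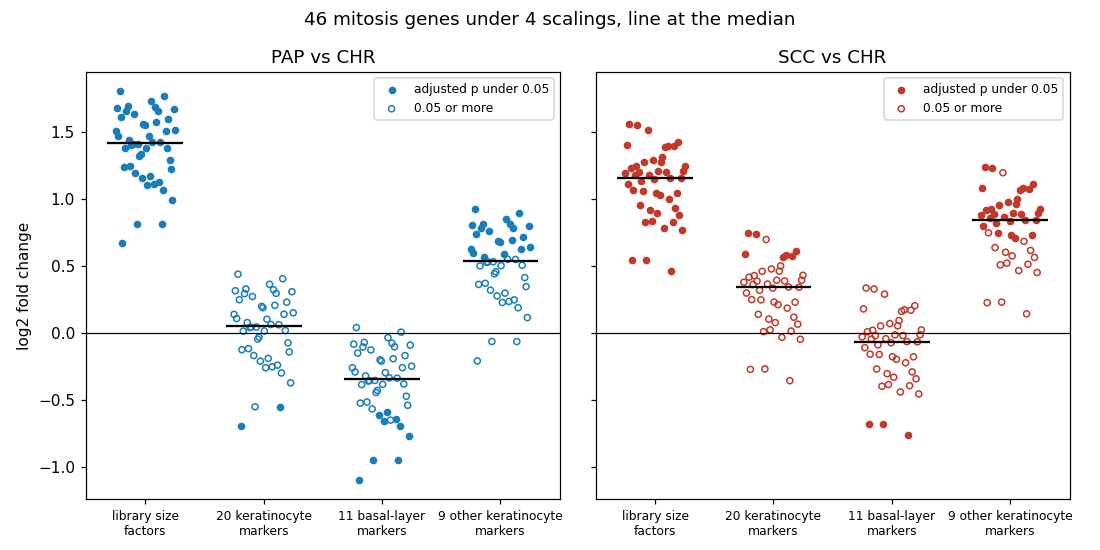
Log2 fold changes of the 46 genes in PAP (left) and SCC (right) against CHR under 4 scalings, with filled points for an adjusted p under 0.05 and a line at the median. The medians in PAP are 1.42 per library size, 0.05 relative to 20 keratinocyte markers, -0.34 relative to the 11 basal-layer markers and 0.54 relative to the 9 others.

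Ndc80, the microtubule-binding subunit of the outer kinetochore, stood apart in 1 library. Its levels were 122 to 199 in CHR (median 144) and 391 to 698 in PAP (median 453), and 308 to 387 in 5 of the carcinomas, but 4101 in the carcinoma of mouse 9. The CHR sample and the papilloma of that mouse held 150.2 and 431. Its 3 partners in the 4-subunit NDC80 complex were also highest there but by a far smaller margin, with 639 for Nuf2, 439 for Spc24 and 413 for Spc25 in the same library, against up to 604, 315 and 349 in the other carcinomas. Ndc80 rose by 1.41 ± 0.43 in papillomas (adjusted p 0.0108) and 1.51 ± 0.43 in carcinomas (adjusted p 0.0107) per library size, and both were positive but not called relative to keratinocyte markers. Without that carcinoma the change in carcinomas was 0.96 ± 0.14 and that between carcinoma and papilloma -0.44 ± 0.14 (adjusted p 0.0694) rather than 0.10.

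**Figure D4:**
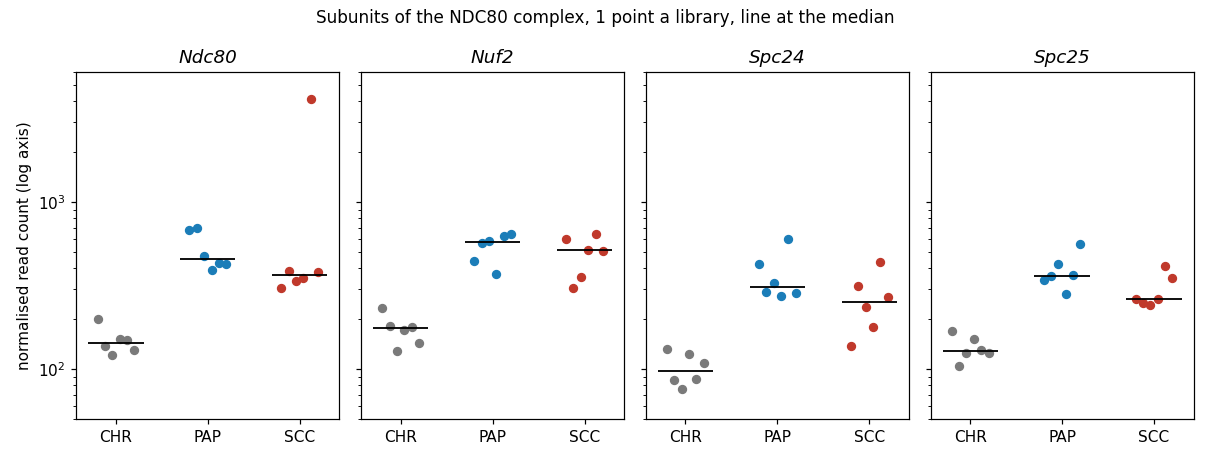
Normalised read count (log axis) of the 4 subunits of the NDC80 complex in the 18 libraries, 1 point a library in order of mouse number, with a line at the group median. The carcinoma of mouse 9 lies at 4101 for Ndc80, about an order of magnitude above the other 5 carcinomas, and at 639, 439 and 413 for Nuf2, Spc24 and Spc25, the highest of the 6 by a far smaller margin.

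Neighbouring genes of Ndc80 were high in the same library. Ndc80 lies on the minus strand of chromosome 17 at 71496100 to 71526857 (GRCm38, GENCODE M21). Wdr43, 89.0 kb away, was at 36952 against 2763 to 4018 in the other 5 carcinomas, Smchd1 at 18595 against 2930.2 to 4093, and Lpin2 at 17292 against 1851 to 3299. Further out, Myl12b was at 4805 against 489 to 697, Myl12a at 13406 against 2383 to 2844 and Alk at 78.8 against 1.79 to 3.44, where the other carcinomas held only a few reads. Of the 15 genes of the table within 1500 kb, 7 with Ndc80 exceeded 3 times the median of the other carcinomas. So did 1.14% of the 11315 genes with a median of at least 100 there, a level that Alk, 1 of the 7, did not reach (3.12). The other 8 of the 15 were Dlgap1 (2.47 times the median), Tgif1 (2.54), Myom1 (0.753), Emilin2 (1.33), Gm4707 (2.79), Clip4 (2.96), Ypel5 (0.630) and Lbh (1.28). Gm4707 lies inside Smchd1 on the same strand, and Myl12a and Myl12b are close copies of each other, so reads may be shared within these pairs. These genes were looked up after the level of Ndc80 had been seen, and the cause was not tested.

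**Figure D5:**
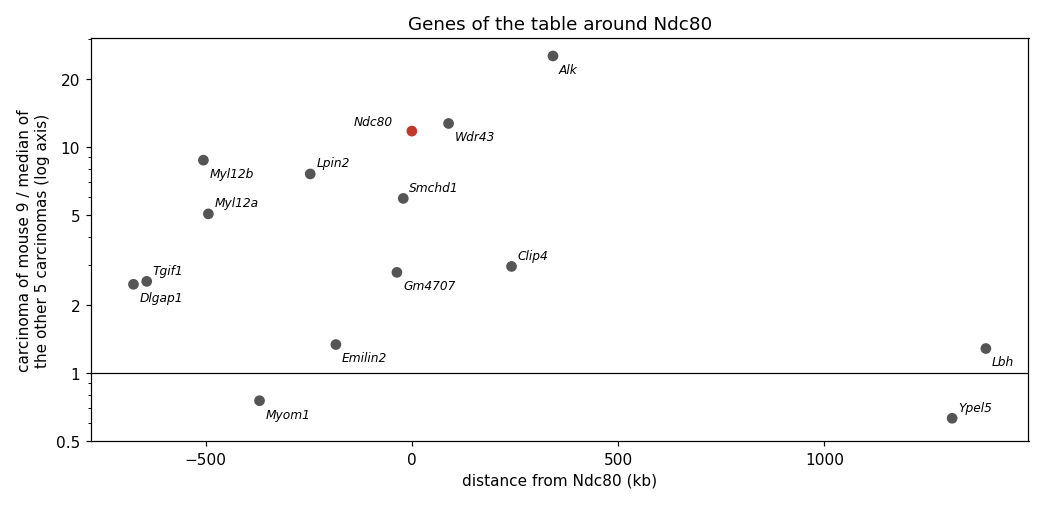
Ratio (log axis) of the normalised read count in the carcinoma of mouse 9 to the median of the other 5 carcinomas, for the 15 genes of the table within 1500 kb of Ndc80, by distance from Ndc80. Ndc80 (red) is at 11.8, Wdr43 at 12.7, and the genes over 1000 kb away at 0.630 and 1.28.

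Genes that peak in mitosis often share promoter elements, and the promoters of the 46 genes were searched for them. The cell cycle genes homology region, the site of the DREAM and MYB-MuvB complexes, is written TTTGAA, and the NF-Y box CCAAT, and both were searched on both strands. RefSeq windows of 250 bases before to 50 after the transcription start (GRCm38.p6) were at hand for 38 of 46 genes, the 8 not matched being Foxm1, Aurkb, Incenp, Smc4, Kif20a, Spc24, Tpx2 and Ccna2. Stretches from 120 bases before to 20 after the start are shown for 6 genes that the results name, chosen to show the arrangement in cyclins, a kinase, the anaphase activator and the most abundant genes, with TTTGAA and CCAAT on either strand in capitals and the sequence in the direction of the gene.
Ccnb2 (chr9:70421535-70421674, minus strand): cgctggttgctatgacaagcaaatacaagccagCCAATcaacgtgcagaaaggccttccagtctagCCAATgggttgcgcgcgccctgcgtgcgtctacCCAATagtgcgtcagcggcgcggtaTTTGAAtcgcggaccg
Ccnb1 (chr13:100786467-100786606, minus strand): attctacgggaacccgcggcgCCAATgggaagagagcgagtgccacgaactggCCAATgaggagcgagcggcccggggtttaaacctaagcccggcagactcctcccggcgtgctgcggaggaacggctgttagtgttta
Plk1 (chr7:122159315-122159454, plus strand): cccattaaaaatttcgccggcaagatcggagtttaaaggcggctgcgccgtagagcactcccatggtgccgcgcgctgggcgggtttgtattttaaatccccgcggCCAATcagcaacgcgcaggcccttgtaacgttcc
Cdc20 (chr4:118437324-118437463, minus strand): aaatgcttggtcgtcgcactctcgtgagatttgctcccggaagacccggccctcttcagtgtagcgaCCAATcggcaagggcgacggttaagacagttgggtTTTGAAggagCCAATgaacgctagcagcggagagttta
Top2a (chr11:99024170-99024309, minus strand): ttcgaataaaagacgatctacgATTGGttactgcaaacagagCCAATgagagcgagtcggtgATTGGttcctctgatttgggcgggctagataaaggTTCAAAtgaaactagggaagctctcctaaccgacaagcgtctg
Mki67 (chr7:135716360-135716499, minus strand): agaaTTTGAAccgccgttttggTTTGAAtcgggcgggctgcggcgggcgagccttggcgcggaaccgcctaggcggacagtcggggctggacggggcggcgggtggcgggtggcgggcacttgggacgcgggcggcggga

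Ccnb2 shows 3 CCAAT boxes at -87, -54 and -21, counted by their first base from the start, ahead of a TTTGAA at 5. Cdc20 and Top2a combine both motifs within the stretch, Plk1 and Ccnb1 show CCAAT only (Plk1 has TTTGAA at 31, past its end), and Mki67 shows TTTGAA at -116 and -98 with its CCAAT boxes further out.

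In the 250 bases before the start, TTTGAA was found in 16 of 38 genes (42.1%), beside 12.9% of the 10745 genes of the table with a window and 18.3% of all 27025 genes with one. CCAAT was found in 28 of 38 (73.7%), beside 39.6% and 37.5%. With the 50 bases after the start included, TTTGAA was in 29 of 38 (76.3%, beside 14.5% and 20.2%), and both motifs together in 24 of 38 (63.2%, beside 5.91% and 7.97%). Within 50 bases on either side of the start, 25 of 38 held TTTGAA, beside 3.85% of the genes of the table. Of the letters of E2F sites in the 250 bases, GCGGGAA was in 1 of 38 (7.71% of the genes of the table), TTTCCCGC in 0 (1.81%) and TTTGGCGC in 3 (0.828%), each TTTCCCGC also being a match of GCGGGAA on the other strand. In the 300-base windows of 75 other mitosis genes, TTTGAA was found in 31 (41.3%). These are matches of letters, and no binding was measured.

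A second list of 97 other genes of mitosis, all in the table and none among the 46, served for comparison. Per library size 84 of 97 rose and 1 fell in papillomas, and 72 rose and 1 fell in carcinomas, while relative to keratinocyte markers 0 rose and 49 fell in papillomas and 3 rose and 22 fell in carcinomas. On that second scale 93.3% of all genes fell in papillomas and 75.2% in carcinomas. Their median log2 fold change was 0.88 in PAP and 0.68 in SCC, against 1.42 and 1.16 for the 46. The 3 largest changes in papillomas were those of Tacc3, a partner of Aurora A on the spindle (1.68 ± 0.17), Ube2c, the ubiquitin-conjugating enzyme of the anaphase-promoting complex (1.65 ± 0.18), and Hmmr, a spindle protein and hyaluronan receptor (1.62 ± 0.14). Ube2c had levels of 102 to 175 in CHR (median 149), 405 to 1004 in PAP (median 594) and 325 to 693 in SCC (median 481).

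The gene that fell was Rbl2, the p130 pocket protein that the DREAM complex is built on in resting cells, with levels of 1522 to 1816 in CHR (median 1707), 656 to 1159.8 in PAP (median 1013) and 839 to 1358 in SCC (median 1093). It changed by -0.76 ± 0.14 in PAP (adjusted p 0.000196) and -0.60 ± 0.14 in SCC (0.00265). The 12 genes not called in papillomas were Anapc2, Anapc5, Anapc10 and Anapc11, which encode core subunits of the anaphase-promoting complex, the cohesin genes Stag2, Wapal and Pds5b, the MuvB core genes Lin9, Lin37 and Lin52, the spindle pole gene Numa1, and E2f1. In carcinomas against papillomas 0 of the 97 were called by limma, beside 0.592% of all genes lower and 4.99% higher. Limma-voom called 0 of all 14521 genes, so its 0 says nothing about the 97. In the limma fit 19 of the 97 had an unadjusted p under 0.05, beside 22.6% of all genes, and the median of the 97 was -0.15. Relative to keratinocyte markers 12 were called higher with a median of 0.40, beside 35.4% of all genes and a median of 0.53.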

How the data were processed

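mRNA of 18 mouse skin samples was sequenced, and 3 groups of 6 were taken from the sample labels. The authors aligned paired-end reads to mm10 with MOSAIK, counted them per gene with HTSeq, and scaled and variance-stabilised the counts with DESeq2. Versions, annotation release and strand setting are not given in the sources used here, and without strand, reads of overlapping genes cannot be told apart. The deposited table holds the transformed values brought back from log2 and rounded (unit: score), in which 0 reads appear as 39.

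The transformation was inverted, and the spacing of low values gave size factors of 0.8344 to 1.178. The reads recovered for the named genes were 15.39 to 20.98 M per library (median 18.87). Rounded to whole reads and transformed again, the recovered reads gave back 98.6% of table values and 100% of deposited values under 100. The study's methods also name a rescaling of each gene between experimental batches, and no batch is given in the labels. A gene-wise rescaling would be expected to leave values that are not whole reads, and whether it touched these values was not tested further. At high values neighbouring read counts lie about as close as the rounding, so most values match some whole number of reads. The share over all values therefore cannot decide this. The 21 table entries named by a number instead of a symbol, at most 0.2355% of a library, were left out, and 0 columns were unmapped.

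The 3 groups were compared with limma 3.58.1 (R 4.3.3) on log2(deposited value + 1), 1 coefficient a group, over 14521 genes, with two-sided moderated tests, Benjamini-Hochberg adjustment and a threshold of 0.05. With simulated data for PAP against CHR (14521 genes, 200 changed), it recovered 80.8% of 2-fold and 94.1% of 4-fold changes, and 5.91% of its calls were false. The simulated spread was taken from the CHR libraries alone, and in the real comparison 7474 genes were called. These rates may therefore not hold for the lesions. Progression classes came from a mixed model with the mouse as random effect, at an unadjusted p under 0.05, without adjustment for multiple tests. The alternatives are named in the closing section. Those added after seeing the data were the divided keratinocyte markers, leaving out 3 single libraries, and the 300-base promoter window.

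Equal numbers in the sample titles mark samples of 1 mouse, so the samples are paired by animal. Deviations from the group means of samples of 1 mouse correlated by -0.245 to 0.507 over 18 pairs, with 9 of them over 0.1.

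The 46 genes, the other lists and the tests were chosen with earlier results of these data known. Group values are given for 37 genes named in advance by symbol, for genes called between carcinoma and papilloma or not called against CHR, and for the 3 largest and smallest changes. Of the other mitosis genes, those called lower and the 3 largest changes in papillomas are named. Exon lengths and positions came from GENCODE M21, and promoter windows from RefSeq (GRCm38.p6). Of 43 windows of named genes checked, 41 had their last 20 bases in a transcript of the gene.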

Additional observations from a re-analysis of the deposited data

Results flagged for a closer look

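In 138 groups of 6 libraries (46 genes in 3 groups), 14 had a library that stood apart from the nearest other by more than Dixon's 95% limit for the gap as a share of the range of the group, where chance gives about 1 in 20. Levels are normalised read counts. The carcinoma of mouse 9 stood above the other carcinomas for Ndc80 at 4101 (nearest other 387), Cdk1 at 2808 (nearest other 1719), Ccna2 at 2448 (nearest other 1819), Ccnb1 at 307 (nearest other 192), Ttk at 1249.5 (nearest other 787), Tpx2 at 2279 (nearest other 1698) and Kif18a at 804 (nearest other 559). The CHR sample of mouse 2 stood above the other CHR samples for Kif11 at 1006 (nearest other 747), Kif20b at 590.3 (nearest other 472), Ndc80 at 199 (nearest other 151) and Cenpk at 75.25 (nearest other 62.5). The papilloma of mouse 2 stood above the other papillomas for Bub3 at 2185 (nearest other 1430.4) and Cenpk at 374 (nearest other 154), and the papilloma of mouse 8 stood below them for Pttg1 at 384 (nearest other 575). The genes of 1 library are not independent of each other, and the causes were not tested.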

How the results depend on the processing

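The call of all 46 genes as higher in papillomas kept its direction and its side of the threshold with the mouse as a replicate block (46), with limma-voom on recovered reads, on log2(normalised count + 1), without a pseudocount, with at least 10 reads in every library, with only the groups compared, with library totals and without each mouse (598 of 598 values), and 584 of 598 did in carcinomas, where Cenpf, Cenpk and Espl1 gave the other 14. The scaling to keratinocyte markers was the exception: it left 2 mitosis genes called in papillomas, both lower, and 7 in carcinomas, all higher. Of all genes it called 93.3% lower in papillomas and 0.888% higher in carcinomas. The basal-layer markers alone gave 9 and 3 called, all lower, and the 9 other markers 21 and 30, all higher, both divisions chosen after seeing the data. Between carcinomas and papillomas, where 1 gene was called, the replicate block gave 3. Limma-voom and only the groups compared gave 0, and they called 0 of all 14521 genes, whereas the 3 keratinocyte scalings gave 0 while calling 5144 (20 markers), 3012 (basal-layer) and 4491 (others) of all genes higher. Leaving out each mouse gave 0 to 3, and leaving out the carcinoma of mouse 9 or that of mouse 10, chosen after seeing the data, gave 4 each. Of all genes, these last 2 fits called 80 and 473 lower. Among the 97 other mitosis genes the keratinocyte scaling left 49 called in papillomas, 25 in carcinomas and 12 between the lesions, where the replicate block gave 2 and leaving out each mouse 0 to 3. The replicate block, with the pairing from the mouse, took the call of Cenpf in carcinomas, added Kif20a and Kif4 between carcinomas and papillomas, and changed no other call among the 46.

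Relative to keratinocyte markers the log2 fold change turned in papillomas to -0.69 (Bub3), -0.12 (Mad2l1), -0.12 (Ccnb1), -0.17 (Cenpf), -0.55 (Cenpk), -0.044 (Nuf2), -0.029 (Spc24), -0.21 (Spc25), -0.26 (Kif14), -0.19 (Kif18a), -0.25 (Kif23), -0.24 (Incenp), -0.55 (Espl1), -0.30 (Pttg1), -0.073 (Ncapd2), -0.14 (Smc2) and -0.37 (Smc4), in carcinomas to -0.27 (Bub3), -0.27 (Cenpk), -0.032 (Kif23), -0.35 (Espl1) and -0.046 (Smc4), and between carcinomas and papillomas for 44 of 46 genes, of which the named ones went to 0.086 (Anln), 0.19 (Aurkb), 0.20 (Espl1), 0.098 (Kif20a), 0.44 (Kif20b), 0.15 (Kif4) and 0.48 (Smc2). Without each mouse, the difference between carcinoma and papilloma was -0.48 to 0.32 for Ndc80, -0.24 to 0.13 for Smc2 and -0.27 to 0.095 for Kif20b. Negative values numbered 39 of 46 without mouse 2, 43 without mouse 7 and 46 without mouse 9, against 45. Of the genes named for this comparison it turned for Ndc80 without mouse 9 (-0.48), for Smc2 without mouse 2 (0.13) or 7 (0.05) and for Kif20b without mouse 2 (0.095). The early class held 45 or 46 of the 46 genes with adjusted p-values, on log2(normalised count + 1), with no replicate block and without each mouse. The 6 libraries a group limit the precision, and genes with few reads, such as Cenpk and Ccnb1, have fold changes that the deposited scale understates.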
